A study of Rattus norvegicus with 12 samples.

Results

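The aorta of spontaneously hypertensive rats (SHR) given a herbal preparation, BSJY, was set beside that of SHRs given captopril. The comparison used 6 of the study's 12 Agilent arrays, chosen by their titles: SHR-Bh 1, 2 and 3, and SHR-Ca 1, 2 and 3. SHR-Bh rats received the high dose of BSJY, 8 herbal granules dissolved in water, written in the labels as 6.75 g/ml/day. SHR-Ca rats received captopril tablets, written as 0.125 g/ml/day. Both were given by gavage once daily for 16 weeks, from an age of 12 weeks, to male SHRs. The age on the sample labels is 32 weeks, which does not match those times and could not be resolved. Total RNA came from the thoracic aorta. The labels say of all groups that the tissue was irradiated, with no dose given. The other arrays held untreated SHRs (SHR-C) and the normotensive Wistar-Kyoto strain (WKY), both given water, 3 arrays each, and a low-dose BSJY group named in the labels is not analysed here. The labels do not say whether an array held the RNA of 1 animal, so p-values cover only the spread among these samples, which may be technical.

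Captopril inhibits angiotensin-converting enzyme, which makes the vasoconstrictor angiotensin II and breaks down the vasodilator bradykinin. The SHR is an inbred strain with genetic hypertension, and its aorta is a conduit artery built of smooth muscle, endothelium and an adventitia that carries nerves and borders on fat. The 2 treatments differ in kind, dose and composition, so their values are given side by side with no comparison per dose. None of 17 genes of the renin-angiotensin and kinin system and none of 18 genes of vascular tone were named on the array. Of 65 marker genes for smooth muscle, endothelium, adventitia, fat, immune, nerve, blood and skeletal muscle cells, 2 were named, both nerve markers. The labelled tissue could therefore not be checked against its markers. The 2 nerve markers, Ppp2r2b and P2rx2, were already known from earlier results of these data to differ between arrays of the same treatment.

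Each array carried 38321 probes that were not controls, of which 37277 had a design ID without a gene name in the sources used here. A probe's level is the log2 of its processed intensity minus the array's 75th percentile. The test kept 21443 probes (56.0%) that cleared the scanner software's flag for a signal well above background on all 3 SHR-Bh arrays, on all 3 SHR-Ca arrays or on both, 290 of them through SHR-Bh alone and 2443 through SHR-Ca alone. Among these were 30 of the 38 genes that the array names.

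The arrays did not group by treatment. Over 21441 probes with a level on all 6 arrays, SHR-Bh 2 and SHR-Bh 3 correlated at 0.990 and SHR-Bh 1 and SHR-Ca 3 at 0.985 (Pearson's r across probes, which are not independent replicates). SHR-Ca 1 correlated at 0.978 with both SHR-Bh 2 and SHR-Bh 3, and at 0.931 with SHR-Ca 2 of its own group. The first principal component held 55.0% of the variance. It put SHR-Bh 2 (63.5), SHR-Bh 3 (61.5) and SHR-Ca 1 (38.4) on one side and SHR-Bh 1 (-22.2), SHR-Ca 3 (-47) and SHR-Ca 2 (-94.3) on the other. A shared scan time placed SHR-Bh 1, SHR-Bh 3 and SHR-Ca 3 in 1 session and SHR-Ca 1 and SHR-Ca 2 in another, while SHR-Bh 2 was scanned apart from the other 5. Probes well above background made up 61.6%, 51.2% and 62.4% on SHR-Bh 1, 2 and 3, and 58.0%, 63.0% and 65.0% on SHR-Ca 1, 2 and 3. The groups overlapped, at 58.4% ± 6.28 and 62.0% ± 3.58 (SD, n = 3), a difference of -3.57 points (two-sided exact permutation p = 0.5, where 3 against 3 cannot go below 0.1). That difference was 0.0465 points without SHR-Bh 2.

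**Figure D1:**
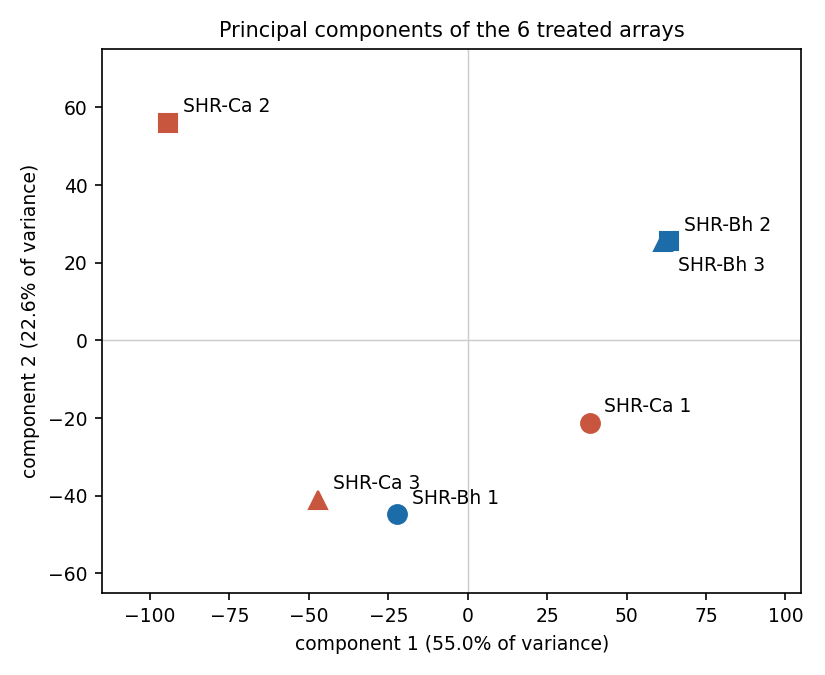
Position of the 6 treated arrays on the first 2 principal components of 21441 probes (arbitrary units), blue for SHR-Bh and red for SHR-Ca. SHR-Bh 2 and SHR-Bh 3 lie together at 63.5 and 61.5 on component 1, SHR-Ca 1 lies at 38.4, and SHR-Bh 1 lies near SHR-Ca 3.

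Cyp2e1, a cytochrome P450 of the endoplasmic reticulum that oxidises ethanol and other small molecules, had the smallest p of the named genes and lay lower in the BSJY group. Its level was 4.25, 5.09 and 4.99 on SHR-Bh 1, 2 and 3, and 6.26, 5.97 and 6.28 on SHR-Ca 1, 2 and 3. All 3 BSJY arrays lay below all 3 captopril arrays. The difference, SHR-Bh minus SHR-Ca, was -1.39 on the log2 scale (SE 0.28, 95% interval -2.0 to -0.79), a level 2.63-fold higher with captopril. In limma the unadjusted p was 0.00035, rank 6 of all probes, and the adjusted p over all probes was 0.57, so the gene did not pass the threshold of 0.05. The groups did not overlap for 6.74% of all tested probes with SHR-Bh lower and for 4.31% with SHR-Bh higher. Fewer cells that express a gene and less of its RNA per cell cannot be told apart in whole tissue.

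Its 10 spots on an array scattered by a median SD of 0.053, well below the SD between arrays of 0.46 in SHR-Bh and 0.17 in SHR-Ca. Within the scan session that held both groups, SHR-Bh 1 and SHR-Bh 3 against SHR-Ca 3, the difference was -1.66 (SE 0.51). Over 19 other settings it ran from -1.88 to -1.13 and its adjusted p from 0.0084, with array weights, to 1.0. With array weights 5709 of the 21443 tested probes passed. SHR-C stood at 5.01 ± 0.41, overlapping SHR-Bh at 4.78 ± 0.46 and lying below all SHR-Ca arrays at 6.17 ± 0.17, and WKY stood at -2.56 ± 0.16 (SD, n = 3). In order of level, WKY was lowest, SHR-Bh and SHR-C did not separate, and SHR-Ca was highest. The WKY arrays were scanned in a session of their own, and no SHR-C array shared a session with an SHR-Bh array. Differences of WKY from any group, and of SHR-C from SHR-Bh, therefore cannot be told apart from scan session. This holds for every level of SHR-C or WKY given below.

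The region before the Cyp2e1 start is shown because this gene had the smallest p of the named genes. RefSeq places the 250 bases upstream of the gene at chr1:205269717-205269966 on the plus strand of GRCr8. They read 5′ to 3′ with 1 match to the motif TATAAA, searched on both strands, in capitals.

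Cyp2e1 upstream: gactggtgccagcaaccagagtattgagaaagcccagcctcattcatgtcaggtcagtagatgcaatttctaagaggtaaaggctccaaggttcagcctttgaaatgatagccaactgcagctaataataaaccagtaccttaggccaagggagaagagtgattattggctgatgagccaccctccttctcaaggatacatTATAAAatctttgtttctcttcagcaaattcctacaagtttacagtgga

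The motif began 49 bases before the gene start and occurred in 12.9% of 33469 upstream windows of this length in the same table. The arrays measured RNA, and no value here bears on binding at this site.

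ASRNV20001332, a probe with a design ID and no gene name that was singled out after its values were seen, was close behind Cyp2e1 in rank. It read 4.32, 4.96 and 5.05 on SHR-Bh 1, 2 and 3 against 6.27, 6.06 and 6.31 on SHR-Ca 1, 2 and 3. Its groups did not overlap, and the difference was -1.43 (SE 0.29, limma adjusted p = 0.57). In SHR-C it was 5.05 ± 0.42 and in WKY -3.66 ± 0.42 (SD, n = 3). The sources used here do not say which transcript it measures.

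**Figure D2:**
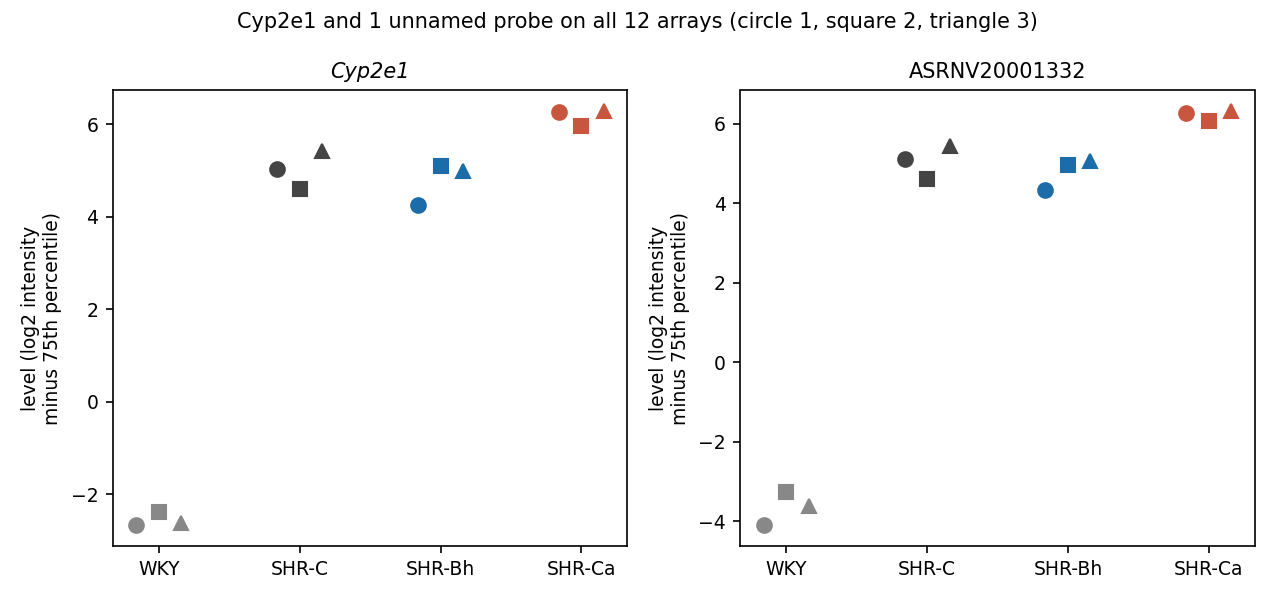
Levels of Cyp2e1 and of the unnamed probe ASRNV20001332 on all 12 arrays, as log2 intensity minus the array's 75th percentile, 1 point per array. In both panels the 3 SHR-Ca arrays, 5.97 to 6.28 for Cyp2e1, lie above all SHR-Bh and SHR-C arrays, and WKY lies lowest.

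The other listed drug-metabolising gene named on the array, Nat1, an arylamine N-acetyltransferase, did not separate the treatments. It was 0.71, 1.32 and 1.38 on the SHR-Bh arrays and 0.99, 1.91 and 0.90 on the SHR-Ca arrays. The ranges overlapped, and the difference was -0.13 (SE 0.32, limma adjusted p = 0.93). Its sign turned to 0.15 within the shared scan session. Of the 10 genes on the xenobiotic list, these 2 were named, and neither passed.

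The fuel enzymes Sdha and Pgk1 had the highest differences of the named genes with BSJY above captopril. The array names 3 of 17 listed enzymes, and all 3 had a higher mean in SHR-Bh. Their median difference was 0.81, against 0.02 over all tested probes. The list was chosen with earlier results of these data known. These values therefore describe the 3 enzymes and do not test fuel enzymes as a set. All 3 were lowest on the same SHR-Ca array, so they do not count as separate findings. None passed the adjusted threshold, which 0.0% of all tested probes passed. All 3, Ldha by the brighter of its probes, had an unadjusted p under 0.05 with SHR-Bh higher. The dimmer Ldha probe did not (limma unadjusted p = 0.28). Over all tested probes 5.04% did so with SHR-Bh higher and 3.65% with SHR-Bh lower. With array weights, and in no other setting, all 3 passed (limma adjusted p from 0.0091 to 0.016), and over the settings the adjusted p of each reached 1.0. In that fit 5709 of the 21443 tested probes passed, and the same count stands beside each gene below that passed with array weights. It weighted SHR-Ca 3 at 2.63 against 0.440 and 0.274 for SHR-Ca 1 and SHR-Ca 2. Each weighted result therefore rests, for captopril, mainly on SHR-Ca 3.

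Pgk1, phosphoglycerate kinase, makes ATP in glycolysis. Its level was 7.30, 7.95 and 7.87 on SHR-Bh 1, 2 and 3, and 7.30, 6.40 and 6.97 on SHR-Ca 1, 2 and 3. SHR-Bh 1 and SHR-Ca 1 met at the same level to 2 decimals, and the other arrays parted by treatment. The difference was 0.81 (SE 0.26, limma adjusted p = 0.57), and 0.61 within the shared scan session.

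Sdha, the flavoprotein subunit of mitochondrial succinate dehydrogenase, was 7.36, 8.40 and 8.18 in SHR-Bh and 7.72, 5.51 and 6.85 in SHR-Ca. SHR-Ca 2 was far below the rest, and SHR-Ca 1 lay above SHR-Bh 1. The difference of 1.28 (SE 0.48, limma adjusted p = 0.57) was 0.69 once SHR-Ca 2 was left out and 1.80 once SHR-Ca 1 was. Within the shared session it was 0.91. It was the only named gene at least 2-fold higher in SHR-Bh by fitted value, as were 3.98% of all tested probes, against 2.96% at least 2-fold lower.

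Ldha, the lactate dehydrogenase subunit that favours lactate formation, was 7.97, 8.52 and 8.25 in SHR-Bh and 8.15, 7.26 and 7.62 in SHR-Ca. Again SHR-Ca 2 was lowest and SHR-Ca 1 lay among the BSJY arrays. The brighter of its probes differed by 0.57 (SE 0.24, limma adjusted p = 0.57) and the dimmer one by 0.34 (SE 0.30, adjusted p = 0.72). Without SHR-Ca 2 the brighter probe's difference was 0.36. SHR-C stood at 7.59 ± 0.19 for Pgk1, 7.71 ± 0.32 for Sdha and 8.23 ± 0.09 for Ldha (SD, n = 3).

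**Figure D3:**
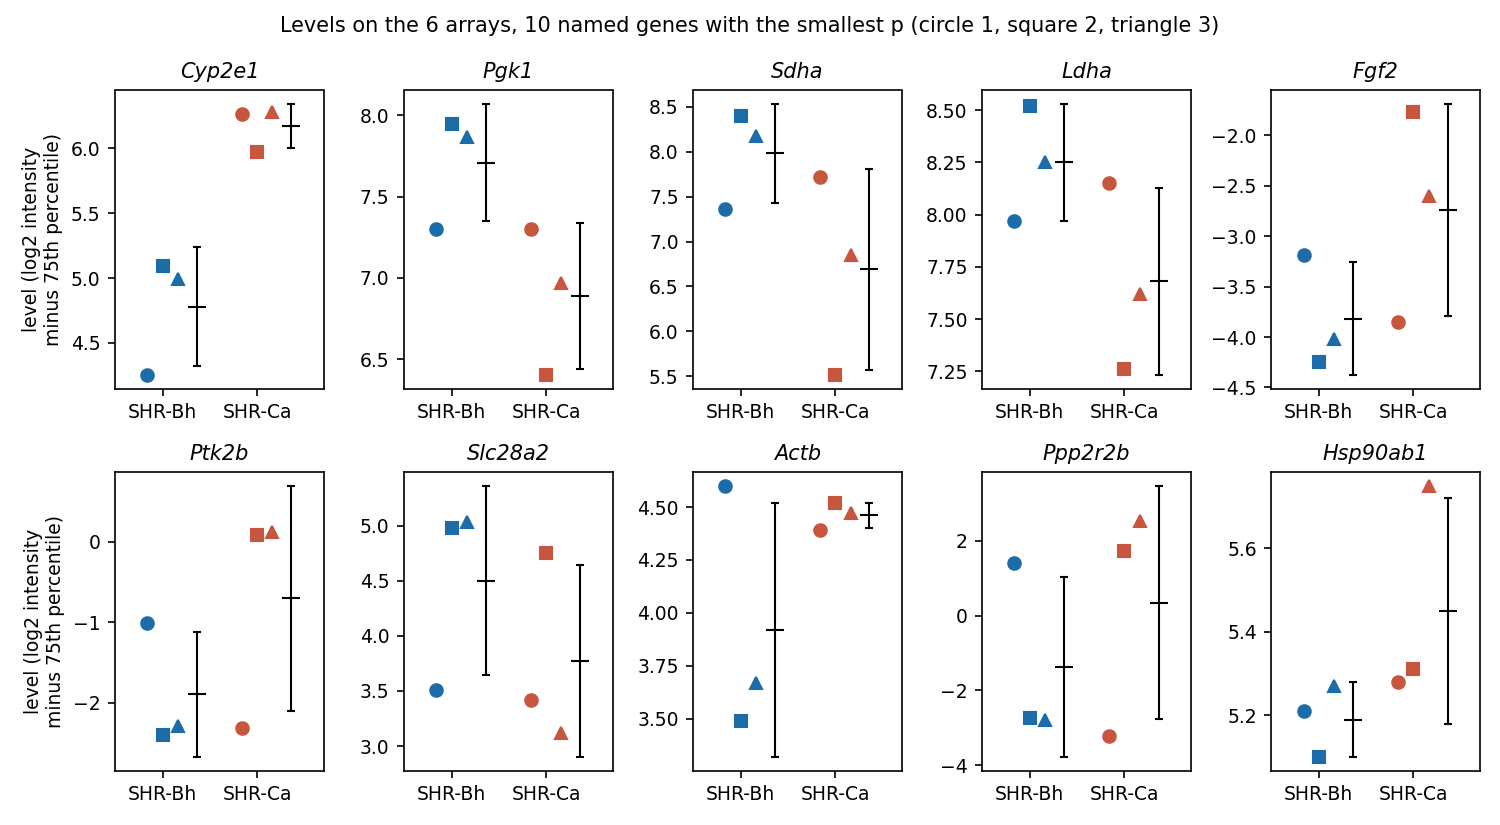
Levels on the 6 arrays of the 10 named genes with the smallest p, as log2 intensity minus the array's 75th percentile, with the mean and SD of 3 arrays in black at the side of each group. The groups do not overlap for Cyp2e1 and Hsp90ab1, and for Ppp2r2b the levels of each group split between about 2 and -3.

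Among genes of vessel growth and adhesion the array names 3 of 10, and none passed. Fgf2, a basic fibroblast growth factor for smooth muscle and endothelium, was -3.19, -4.25 and -4.02 in SHR-Bh and -3.85, -1.77 and -2.60 in SHR-Ca. It was dim and missed the background flag on SHR-Bh 2, so the filter kept it only through SHR-Ca, the group where it was higher. SHR-Ca 1 lay among the BSJY arrays. The difference was -1.08 (SE 0.49, limma adjusted p = 0.57), -0.60 if SHR-Ca 2 was left out and -1.64 if SHR-Ca 1 was. With normexp background correction it was -0.25, and within the shared session -1.01. It passed with array weights alone (adjusted p = 0.014, and up to 1.0 over the settings).

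Cdh2 encodes N-cadherin, which joins smooth muscle cells to each other. It was 0.56, 0.44 and 0.37 in SHR-Bh, a narrow range that lay inside the -0.12, 1.09 and 1.44 of SHR-Ca. The difference was -0.35 (SE 0.33, limma adjusted p = 0.75), and -0.98 within the shared session. Leaving out SHR-Ca 3 gave -0.03 and leaving out SHR-Ca 1 gave -0.81. The gene passed with array weights alone (adjusted p = 0.034, and up to 1.0 over the settings). Pdcd10, whose loss causes cavernous malformations of brain vessels, was 2.90 ± 0.23 against 2.81 ± 0.14 (SD, n = 3), a difference of 0.08 (SE 0.22, adjusted p = 0.93).

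Ppp2r2b, P2rx2 and Ptk2b were listed because earlier results of these data had them apart between arrays of 1 treatment, so that split is a description. Ppp2r2b, a brain-enriched regulatory subunit of protein phosphatase 2A, was 1.42, -2.73 and -2.79 on SHR-Bh 1, 2 and 3, and -3.22, 1.73 and 2.53 on SHR-Ca 1, 2 and 3. SHR-Bh 1, SHR-Ca 2 and SHR-Ca 3 were high, and the other 3 arrays were low, the same split as on the first principal component. Within SHR-Bh the SD was 2.41, and within SHR-Ca 3.12. The fitted difference was the widest of the named genes at -1.71 but had an SE of 1.38 (95% interval -4.73 to 1.31, limma adjusted p = 0.69). Leaving out SHR-Ca 1 gave -3.50 and leaving out SHR-Ca 3 gave -0.62, and it was -3.22 within the shared session. With array weights it was -4.18 and passed (adjusted p = 0.011), which it did in no other setting, where the adjusted p reached 1.0.

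Ptk2b, a calcium-responsive tyrosine kinase related to focal adhesion kinase, was -1.01, -2.41 and -2.29 in SHR-Bh and -2.32, 0.09 and 0.13 in SHR-Ca. The same 3 arrays were the highest. The difference was -1.20 (SE 0.60, limma adjusted p = 0.57), -2.01 when SHR-Ca 1 was left out, -0.79 when SHR-Ca 3 was, and -1.78 within the shared session. Array weights gave -2.05 and the one call for this gene (adjusted p = 0.0087, and up to 1.0 over the settings).

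Some dim genes met the background flag on those arrays and not enough others to be tested. P2rx2, an ATP-gated channel and the other nerve marker named, was -2.24 on SHR-Bh 1, -1.79 on SHR-Ca 2 and -0.95 on SHR-Ca 3, and did not clear the flag on the other 3 arrays. Map2, a neuronal microtubule protein, was -3.47, -3.84 and -1.80 on the same arrays, and Dlg4, a scaffold of excitatory synapses, was -3.93, -3.97 and -2.94. On SHR-Bh 2, SHR-Bh 3 and SHR-Ca 1 neither cleared the background flag. The part of nerve RNA in the differences between treatments was not tested. Napepld, above background on no SHR-Bh and 2 SHR-Ca arrays, and Pdk3, above it on 2 arrays of each group, also missed the filter. Nlrp3, Gdnf and Lhcgr were above background on none of the 6 arrays.

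Slc28a2, a sodium-coupled nucleoside transporter that takes up adenosine and other purine nucleosides, was 3.51, 4.98 and 5.03 in SHR-Bh and 3.42, 4.75 and 3.12 in SHR-Ca. SHR-Bh 2, SHR-Bh 3 and SHR-Ca 2 were high, so the groups overlapped. The difference of 0.74 (SE 0.50, limma adjusted p = 0.63) was 1.15 within the shared session, 1.24 without SHR-Bh 1 and 0.42 without SHR-Ca 3. It turned to -0.43 without SHR-Bh 2, SHR-Bh 3 and SHR-Ca 1 together, and was 1.61 with array weights, where alone it passed (adjusted p = 0.010, and up to 1.0 over the settings).

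The custom probe set of 10 genes commonly used as references, with 30 spots per gene, held the fuel enzymes Pgk1, Sdha and Ldha and 7 others. Of the 10, 6 had a higher mean in SHR-Bh, 4 had a lower one and none passed, with a median difference of 0.10 against 0.02 over all tested probes. Actb, cytoskeletal actin, was 4.60, 3.49 and 3.67 in SHR-Bh and 4.39, 4.52 and 4.47 in SHR-Ca. SHR-Bh 1 lay above all captopril arrays and the other 2 BSJY arrays below them, and the difference was -0.54 (SE 0.38, limma adjusted p = 0.65).

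Hsp90ab1, a cytosolic chaperone, was 5.21, 5.10 and 5.27 in SHR-Bh and 5.28, 5.31 and 5.75 in SHR-Ca. No overlap was seen, by a margin of 5.27 against 5.28, and the difference of -0.25 (SE 0.22, limma adjusted p = 0.71) was -0.10 without SHR-Ca 3. Cyp2e1 and Hsp90ab1 were the 2 of 30 named genes without overlap, where 11.0% of all tested probes were without overlap in either direction. B2m, the light chain of MHC class I, differed by 0.27 (SE 0.23, adjusted p = 0.72). Hprt1, a purine salvage enzyme, differed by 0.16 (SE 0.24, adjusted p = 0.86), and Gusb, a lysosomal glucuronidase, by -0.10 (SE 0.41, adjusted p = 0.96).

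Genes of protein turnover and synthesis gave differences no wider than -0.21 to 0.29, none past the threshold. Of 7 listed ubiquitin ligases and Nedd4 adaptors, the 4 named on the array (Trim2, Ndfip1, Ndfip2 and Mex3c) differed by 0.03 to 0.29. Trim2, a ubiquitin ligase, was 2.58, 2.80 and 2.86 in SHR-Bh and 2.41, 1.98 and 3.00 in SHR-Ca. Its difference of 0.29 (SE 0.28, limma adjusted p = 0.75) turned to -0.27 within the shared session. Of 7 translation genes, 3 were tested: Eif4b, an initiation factor that aids the helicase eIF4A, differed by -0.21 (SE 0.24, adjusted p = 0.80), and the ribosomal protein genes Rplp1 and Rpl13a by 0.05 (SE 0.21) and -0.03 (SE 0.20). The 95% interval of Rplp1 was -0.40 to 0.50 and that of Rpl13a -0.47 to 0.41.

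Enpp1, which makes the calcification inhibitor pyrophosphate from extracellular ATP, was 1.77, 2.37 and 2.47 in SHR-Bh and 1.90, 2.45 and 1.61 in SHR-Ca. The ranges overlapped, with a difference of 0.21 (SE 0.29, limma adjusted p = 0.84) that was 0.03 without SHR-Ca 3. It passed with array weights alone, at 0.66 (adjusted p = 0.037, and up to 1.0 over the settings). Pld1, a phospholipase that makes phosphatidic acid, was -0.41, -0.36 and -0.38 in SHR-Bh, inside the -1.31, 0.41 and -0.29 of SHR-Ca. Its difference was 0.02 (SE 0.36, adjusted p = 0.99). The remaining tested genes, Cse1l, Med16, Magoh, Odf2l and Pop7, differed by -0.12 to 0.15. Odf2l was 3.96, 1.65 and 1.56 in SHR-Bh and 2.15, 2.11 and 3.26 in SHR-Ca, with SHR-Bh 1 and SHR-Ca 3 highest. Its difference was -0.12 (SE 0.58, limma adjusted p = 0.96). It passed with array weights alone, where 5709 of the 21443 tested probes passed.

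Taking all 30 named genes, 16 had a higher and 14 a lower mean in SHR-Bh, with a median difference of 0.02, the same as over all tested probes. By fitted value 1 was at least 2-fold higher (Sdha) and 4 at least 2-fold lower (Cyp2e1, Fgf2, Ptk2b and Ppp2r2b), beside 3.98% and 2.96% of all tested probes. Of these genes, Fgf2 was kept by the filter through SHR-Ca alone. Those shares also hold probes kept through a single group. Of the probes at least 2-fold apart, 740 of 853 with SHR-Bh higher were above background on all 6 arrays. With SHR-Bh lower, 355 of 634 were. The 20 genes other than those with the 10 smallest p differed by -0.35 to 0.29. The spots of a gene scattered on an array by a median SD of 0.057, and the SE of a difference had a median of 0.30 over all tested probes.

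**Figure D4:**
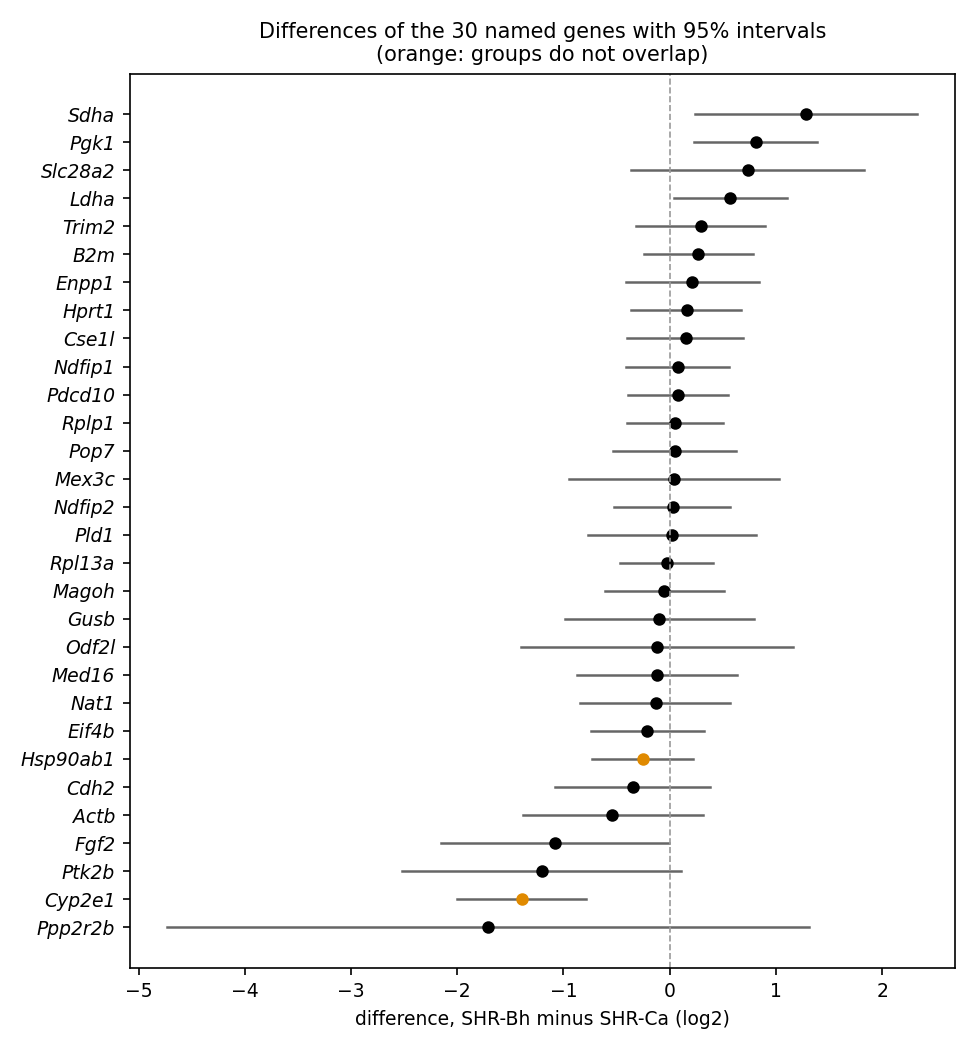
Difference in level, SHR-Bh minus SHR-Ca, of the 30 tested named genes on the log2 scale, with 95% intervals from limma, ordered by size. The intervals of Sdha, Pgk1, Ldha, Fgf2 and Cyp2e1 do not reach 0 before adjustment, and that of Ppp2r2b runs from -4.73 to 1.31.

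Ultraconserved elements, genomic stretches nearly identical between distant mammals, were covered by 962 probes, of which 193 were bright enough to be tested. In limma 0 passed, and 7 had an unadjusted p below 0.05. Their median difference was 0.03, with a range from -1.71 to 2.01, beside 0.02 over all tested probes. Groups were without overlap for 12 with SHR-Bh higher and 6 with SHR-Bh lower. Over all tested probes the shares were 4.31% and 6.74% for no overlap, and 5.04% and 3.65% for an unadjusted p below 0.05, with SHR-Bh higher and lower.

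Across all 21443 tested probes none passed in limma, and the smallest adjusted p was 0.57. At an unadjusted p under 0.05 there were 1864 probes, 1081 with SHR-Bh higher and 783 with SHR-Bh lower. The groups did not overlap for 924 probes with SHR-Bh higher and 1445 with SHR-Bh lower, and of these 411 and 144 were also at least 2-fold apart. Between arrays the median SD was 0.29 for SHR-Bh and 0.36 for SHR-Ca, and the median size of a difference was 0.27. The count of 0 depended on the fit. With array weights, 5709 probes passed, 3655 with SHR-Bh higher and 2054 lower, among them 11 named genes: Cyp2e1, Sdha, Pgk1, Ldha, Fgf2, Cdh2, Ppp2r2b, Ptk2b, Slc28a2, Enpp1 and Odf2l. That fit weighted SHR-Bh 1 at 0.363, SHR-Bh 2 at 1.92 and SHR-Bh 3 at 2.85. It weighted SHR-Ca 1 at 0.440, SHR-Ca 2 at 0.274 and SHR-Ca 3 at 2.63, so its captopril level rested mainly on SHR-Ca 3. The weights were estimated from these same data. With only the 6 arrays in the fit 102 passed, all with SHR-Bh higher and none named, and without SHR-Bh 1 there were 21, 19 higher and 2 lower. None passed when scan session was a block, or within the session that held both groups. That session had 1 SHR-Ca array against 2 SHR-Bh arrays, and the blocked fit gives the same differences. Neither could readily pass, so the lack of passing probes does not bear on stability. Every difference given within the shared session rests on that 1 SHR-Ca array.

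Unnamed probes stood at both ends. ASRNV20012959, well above background on all 6 arrays, was 3.23, 3.85 and 3.90 in SHR-Bh and 2.47, 1.56 and 1.72 in SHR-Ca. The groups did not overlap, and the difference was 1.74 (SE 0.30, limma adjusted p = 0.57), with 1.85 within the shared session. SHR-C lay between them at 2.69 ± 0.28 (SD, n = 3). ASRNV20030444, first by p, was -3.22, -2.97 and -3.33 in SHR-Bh and not well above background in SHR-Ca. The filter therefore kept it only through SHR-Bh, the group where it was higher. Comparing group means, it was 2.94-fold higher in SHR-Bh, with each SHR-Ca array taken at no less than its dimmest probe clearing the background flag. That fold is a floored estimate and not a strict bound, and it was 2.74 without SHR-Bh 2. Its limma adjusted p was 0.57. With normexp the fitted difference was 0.31 on the log2 scale, a smaller change than that fold.

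Lower in SHR-Bh, ASRNV20022775 was 0.80, 6.11 and -0.50 on SHR-Ca 1, 2 and 3 and not well above background on any SHR-Bh array. SHR-Ca 2 stood far above the others of its group. With the same floor set on the SHR-Bh arrays, the level was 95.3-fold higher in SHR-Ca (limma adjusted p = 0.57). This floored fold rested on single arrays: it was 24.0-fold without SHR-Ca 2, 151-fold without SHR-Ca 1 and 238-fold without SHR-Ca 3. Its measured means were 2.13 ± 3.50 in SHR-Ca and -5.71 ± 0.64 in SHR-Bh (SD, n = 3). The fitted difference of -7.84 was -3.63 with normexp. Leaving out SHR-Ca 2 gave -5.86 and leaving out SHR-Ca 3 gave -9.16, and the value was -5.36 within the shared session. Of the 21443 tested probes, 44 were well above background on all SHR-Ca arrays and on no SHR-Bh array, and 7 were so the other way. They were among the 2443 probes kept through SHR-Ca alone and the 290 through SHR-Bh alone. The filter kept them only through the group where they were high. The share of probes above background was lowest on SHR-Bh 2, at 51.2%, and its part in these counts was not tested.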

How the data were processed

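RNA of 12 aorta samples was labelled with Cy3 and hybridised to 1-colour Agilent arrays. The authors deposited each array's spot intensity; per the file headers these were corrected for background and for spatial trends by Agilent Feature Extraction 11.0.1.1, and no step between arrays is recorded. Outlier spots were left out, log2 intensity was averaged per probe, and levels were taken relative to the 75th percentile of their array. No spot was saturated. A probe was above background on an array if most of its spots were. The array names 38 genes through 39 of 62 accessions, matched to RefSeq genes of GRCr8, and the brightest of a gene's probes stood for it. The fit used limma 3.58.1 (R 4.3.3) on all 12 arrays with a mean for each of the 4 groups and no covariate, and Benjamini-Hochberg adjustment ran over 21443 probes. The fit was tested on simulated data. Their noise was independent between probes and arrays, without the variation shared among probes here, so that test does not bear on how many probes passed. Permutation tests used SciPy 1.17.1. A fitted difference is on the log2 scale, and 2 tested probes lacked a level on some treated array.

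Genes were named if they passed the threshold, were among the 10 with the smallest p, had groups without overlap, or were on the gene lists; unnamed probes by the 2 smallest p per direction, of which 1 is not shown. The comparison, lists and alternatives were chosen with earlier results of these data known. Alternatives covered normalization, background, filter, outliers, variance, array weights, arrays in the fit, scan session, replicate number and probes per gene. Normexp, with an offset of 50, used median spot signals, since the files hold no mean signal. The number of arrays limits the precision.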

Additional observations from a re-analysis of the deposited data

How the results depend on the processing

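Each result was recomputed under 20 other settings where the setting applies. The count of probes past the threshold was 0 in all but 3 of them: 5709 with array weights, 102 with only the 6 arrays, and 0 to 21 when 1 array was left out (21 without SHR-Bh 1). The number of named genes past it was 11 with array weights and 0 otherwise. The cause of these differences was not tested. At an unadjusted p under 0.05 the count ran from 476 with scan session as a block to 8685 with array weights. When 1 array was left out it ran from 722 without SHR-Bh 2 to 4123 without SHR-Ca 1, where the smallest adjusted p was 0.088. The replicate block gave 0 probes and 0 named genes, with 1620 at an unadjusted p under 0.05. Same-numbered arrays deviated in opposite ways (r of -0.50, -0.12 and -0.38), so no shared deviation by number was seen. Deviations were taken from each group's mean and are tied to each other, so these values cannot exclude a pairing of the samples. The share of probes above background differed by -5.59 to 0.0465 points when 1 array was left out. Of 25 genes and probes, 15 kept their sign in every setting, where the 2 scan-session settings give the same differences and amount to 1 check. Some of the 25 were chosen by a small p or by groups without overlap in this same comparison. Where groups do not overlap, leaving out or weighting arrays cannot turn the sign, so the count of 15 does not bear on stability. With quantile normalization Hprt1 turned to -0.07 and Rplp1 to -0.10. With array weights Nat1 turned to 0.31, Trim2 to -0.01, Gusb to 0.41 and Rpl13a to 0.14. When scan session was a block, and within the session of both groups, they turned to 0.15, -0.27, 0.48 and 0.18. Leaving out 1 array gave -0.32 to 0.19 for Nat1, -0.14 to 0.18 for Rplp1, -0.38 to 0.34 for Gusb and -0.13 to 0.12 for Rpl13a. Without SHR-Bh 2, SHR-Bh 3 and SHR-Ca 1 together, Slc28a2 turned to -0.43, Actb to 0.11, B2m to -0.07, Enpp1 to -0.26 and Hprt1 to -0.34. The median difference over all probes was 0.0217 with the 75th percentile, -0.0102 with quantile normalization and 0.0319 with normexp. With normexp the difference of Fgf2 was -0.25 and that of Ptk2b -0.69; the cause was not tested. Of the tested genes, Fgf2 alone missed the background flag on 1 of the 6 arrays.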

Other observations

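Of 23 probes whose accession matched no gene in the reference table, 21 were bright enough to be tested. None passed in limma and none had an unadjusted p under 0.05. In 14 the mean was higher in SHR-Bh and in 7 lower, with a median difference of 0.23 and a range from -0.70 to 0.97, beside a median of 0.02 over all tested probes. The groups did not overlap for 1 of them, with SHR-Bh lower. Over all tested probes the shares were 6.74% for no overlap with SHR-Bh lower and 4.31% with SHR-Bh higher, and 5.04% and 3.65% for an unadjusted p under 0.05 with SHR-Bh higher and lower. None of the 20 custom probes without an accession was bright enough to be tested.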
